A study of Mus musculus with 39 samples.

Results

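Mitochondrial fatty acid oxidation was followed through 31 genes in the proximal small intestine of young mice. The genes were chosen by name from a list of fatty acid activation, carnitine shuttle, beta-oxidation, electron transfer, thioesterase and fuel choice genes; the rule itself uses no measured value, but the list was drawn up with earlier results of these data known. They were 31 of the 56980 genes in the count files, and 30 of them were among the 14658 genes with enough reads to test. Cpt1b, the muscle form of carnitine palmitoyltransferase 1, was the member that fell below the filter on low counts.

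The study fed 39 female C57BL/6JRccHsd mice for 3 weeks after weaning at 21 days of age, and collected RNA in the fed state at 42 days. Each diet was given to 13 mice, and each mouse gave 1 library. In the galactose diet the varied carbohydrate was 16 en% (percent of dietary energy) galactose with 16 en% glucose. In the lactose diet it was 32 en% lactose, the disaccharide in which galactose and glucose are joined, and in the glucose diet it was 32 en% glucose. Protein and fat gave 20 en% each in every diet, starch 32 en% and fructose 3 en%. The sample was the scraped inner layer of the upper part of the small intestine without its first 2 cm, which holds mainly enterocytes but also other cells of the wall. In such a bulk sample, fewer cells of a type and less RNA per cell cannot be told apart.

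Long-chain fatty acids are first joined to coenzyme A by acyl-CoA synthetases and then carried into the mitochondrion as carnitine esters by the carnitine shuttle. Inside, repeated rounds of dehydrogenation, hydration, a further dehydrogenation and thiolysis shorten the chain and release acetyl-CoA, while electrons pass through the electron transfer flavoprotein to the respiratory chain. Many of these genes are known targets of PPAR-alpha, a nuclear receptor activated by fatty acids, and enterocytes meet large amounts of dietary fat.

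Sequence before the start site is shown for Hadhb, Slc22a5 and Cpt1a, and its part in their levels was not tested. Hadha and Hadhb encode both subunits of the mitochondrial trifunctional protein, and in RefSeq (GRCm38.p6) they start on opposite strands of chromosome 5, at 30154980 and 30155253, 273 bases apart. The 250 bases before the start of Hadhb (chr5:30155003-30155252, plus strand) therefore fill most of the stretch between these starts, and they hold 2 copies of GGGCGG, the GC box, in capitals. The window before Slc22a5 (chr11:53891704-53891953, minus strand) is shown because this carnitine transporter differed most between lactose and galactose, and it holds 3 GC boxes, counted on both strands. The window before Cpt1a (chr19:3323051-3323300, plus strand), the gene of the entry step, holds 1 copy of AGGTCA, a half-site of nuclear receptors, on the opposite strand. Only this half-site is in capitals there. The Cpt1a window also holds the GC box and CCAAT, left in lower case.
Hadhb: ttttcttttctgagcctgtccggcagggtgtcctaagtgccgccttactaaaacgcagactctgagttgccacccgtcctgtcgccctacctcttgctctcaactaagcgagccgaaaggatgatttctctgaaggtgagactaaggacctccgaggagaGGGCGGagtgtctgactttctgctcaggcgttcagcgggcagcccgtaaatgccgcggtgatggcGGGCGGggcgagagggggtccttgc
Slc22a5: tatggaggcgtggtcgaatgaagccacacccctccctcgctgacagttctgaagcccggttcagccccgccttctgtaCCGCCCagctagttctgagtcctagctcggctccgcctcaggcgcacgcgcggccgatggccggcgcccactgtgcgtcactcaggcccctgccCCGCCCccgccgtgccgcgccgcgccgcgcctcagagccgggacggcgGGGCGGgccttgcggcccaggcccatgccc
Cpt1a: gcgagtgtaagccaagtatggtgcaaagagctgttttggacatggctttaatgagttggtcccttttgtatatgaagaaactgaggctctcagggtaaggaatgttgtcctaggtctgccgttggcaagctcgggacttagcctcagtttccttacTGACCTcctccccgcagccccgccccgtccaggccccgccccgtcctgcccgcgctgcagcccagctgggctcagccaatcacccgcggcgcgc

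RefSeq windows of this kind were found for 26 of the 31 members. GGGCGG on either strand stood in 17 of the 26 (65.4%), against 32.7% of the 32851 windows of all genes. CCAAT, the CCAAT box, stood in 11 (42.3%), against 33.8% of all windows. AGGTCA stood in 4 members (15.4%), Acadm, Acadvl, Cpt1a and Echs1, against 14.0% of all windows. The full direct repeat of AGGTCA with 1 base between the copies, the form bound by PPAR with its partner receptor RXR, stood in 0 of the 26 and in 0.0335% of all windows. The looser repeat of AGGNCA with 1 base between also stood in 0 of the 26, against 0.338% of all windows. These matches describe the letters in these windows and nothing more.

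Libraries held 19685385 to 21350610 reads assigned to genes. Levels are given as CPM, counts scaled to a common library size with TMM factors, a per-library correction for composition, and a gene is called where the edgeR quasi-likelihood test gave a p value below 0.05 after Benjamini-Hochberg adjustment over all 14658 genes. All 9 enterocyte markers were tested. Their summed level ran over 47904 to 77130 CPM (median 64160) in galactose mice and 55416 to 78179 CPM (median 70974) in lactose mice. In glucose mice it ran over 49518 to 82287 CPM (median 64178.5), so the labelled tissue carried its markers in every library. Of the 9, 1 was called for galactose against glucose, 3 for lactose against glucose and 2 for lactose against galactose. Over all tested genes 4.07%, 15.6% and 30.9% were called in these comparisons. Galactose replicate 4 stood apart with 33393 CPM of pancreatic acinar markers, against at most 329 CPM in any glucose library and 35.0 CPM in any lactose library. Without it, 16 members in place of 17 were called for galactose against glucose, 4 in place of 3 for lactose against glucose and 16 in place of 18 for lactose against galactose. The calls lost were those of Acadl for galactose against glucose and of Acad9 and Etfa for lactose against galactose, and Eci1 was gained as lower in lactose than in glucose mice.

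The galactose diet went with lower transcript levels along most of the pathway. Of the 30 tested members, 16 were called lower in galactose than in glucose mice, 1 was called higher and 13 were not called, where 4.07% of all tested genes were called in this comparison, 2.87% lower and 1.21% higher. The median log2 difference of the members was -0.32, against -0.0031 for all tested genes, and 27 of the 30 lay below 0. The called members differed by 1.20-fold to 2.05-fold in size. Set against the same galactose mice, lactose mice had 16 members called higher and 2 lower, with a median of 0.24 against -0.021 for all tested genes. In that comparison 15.9% of all genes were called higher and 15.0% lower. Between lactose and glucose mice 2 members were called higher and 1 lower, against 8.73% and 6.84% of all tested genes, with a median of -0.019 against -0.026. Comparisons that share a diet share its mice, so their values stand side by side and are not independent. With libraries scaled by their totals alone, the median of all tested genes shifted by -0.11 for lactose against glucose and by -0.14 for lactose against galactose. Relative to that median the members stood at 0.0054 and 0.26, against 0.0071 and 0.26 with TMM scaling. For lactose against glucose 10 members were then called lower and 1 higher. Of all 14658 tested genes 2904 were called lower and 623 higher in that fit. A test of any difference among the 3 diets called 21 members, against 30.3% of all tested genes.

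**Figure D1:**
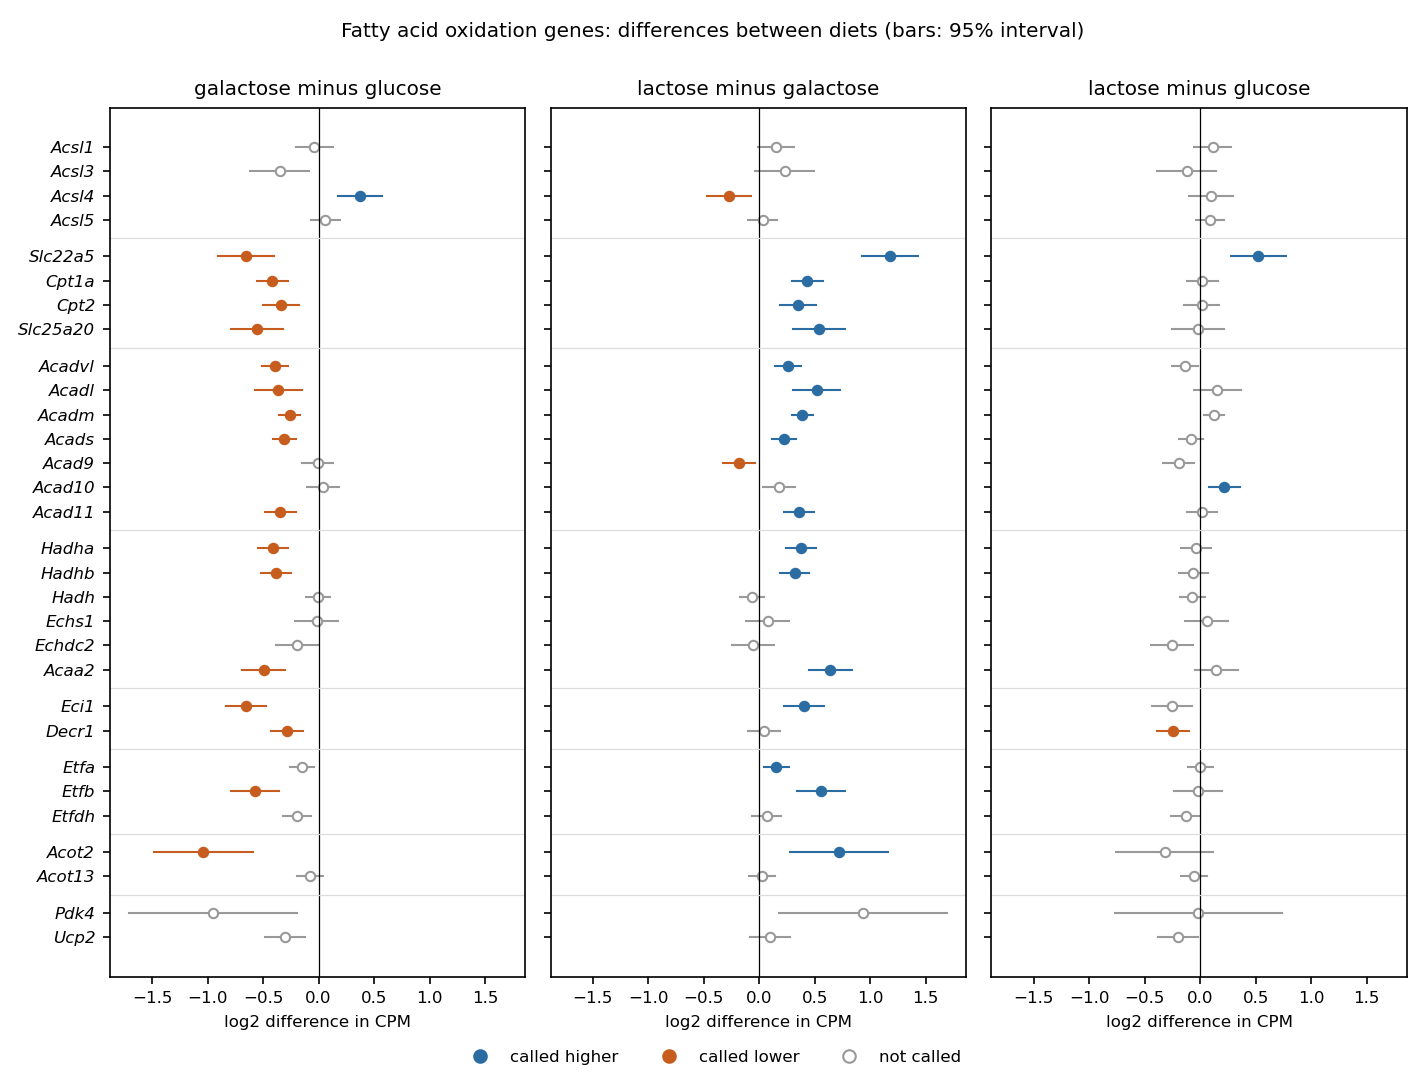
Log2 difference in CPM for each of the 30 tested members, ordered by role, in galactose minus glucose, lactose minus galactose and lactose minus glucose; points are the fitted differences and bars their 95% intervals, with called members filled. In the left panel 16 members are called lower, in the middle panel 16 are called higher, and in the right panel 3 are called.

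Of the 4 acyl-CoA synthetases of the activation step, 1 was called. Acsl4 ran over 4.44 to 7.05 CPM with a median of 5.57 in galactose mice, 3.61 to 5.99 CPM with a median of 4.68 in lactose mice and 3.07 to 5.79 CPM with a median of 4.14 in glucose mice. Acsl4, a synthetase that prefers arachidonate, was the only member called higher with galactose, by a log2 difference of 0.37 ± 0.10 (SE; adjusted p = 0.0249), above the glucose mean in 13 of 13 galactose mice, and it was called lower in lactose than in galactose mice (-0.27 ± 0.10, adjusted p = 0.0344). The first of these calls was lost without glucose replicate 12 (adjusted p = 0.0517) and the second in 6 of the 39 fits that left out 1 library. The ranges of the diets overlapped widely. Acsl3 ran over 34.3 to 59.3 CPM with a median of 48.6 in galactose mice, 31.1 to 105 CPM with a median of 51.0 in lactose mice and 38.5 to 86.8 CPM with a median of 62.6 in glucose mice. Acsl3, a synthetase of the endoplasmic reticulum and lipid droplets, lay lower in galactose than in glucose mice by -0.35 ± 0.14 without passing the threshold (adjusted p = 0.129). Acsl5, a synthetase of enterocytes, averaged 3027 ± 346 CPM in galactose mice, 3088 ± 357 CPM in lactose mice and 2901 ± 301 CPM in glucose mice (SD, n = 13 each). Acsl1 averaged 91.3 ± 11.6 CPM in galactose mice, 101 ± 23.8 CPM in lactose mice and 93.8 ± 7.36 CPM in glucose mice. Neither was called in any comparison, and the 95% intervals of their galactose minus glucose differences were -0.067 to 0.19 for Acsl5 and -0.20 to 0.13 for Acsl1.

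All 4 tested genes of the carnitine shuttle fell with galactose. Slc22a5 ran over 101 to 211 CPM with a median of 129.9 in galactose mice, 218 to 409.8 CPM with a median of 322 in lactose mice and 104 to 286 CPM with a median of 219 in glucose mice. Slc22a5 imports carnitine across the plasma membrane. Every lactose mouse lay above every galactose mouse, and the glucose mice reached into both ranges. How many of all tested genes separate these diets in this way was not counted. Its log2 difference was -0.66 ± 0.13 with galactose relative to glucose (adjusted p = 0.00145, 13 of 13 mice), 1.18 ± 0.13 with lactose relative to galactose (adjusted p = 8.76e-09, 13 of 13) and 0.52 ± 0.13 for lactose against glucose (adjusted p = 0.0042, 13 of 13). It was thus called in all 3 comparisons, with lactose highest, glucose between and galactose lowest. Diet took 68.8% of the variance of its log2 level, the highest share of any member.

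Cpt1a ran over 201 to 274 CPM with a median of 216 in galactose mice, 227 to 411 CPM with a median of 303 in lactose mice and 221 to 365 CPM with a median of 297 in glucose mice. Cpt1a makes the acylcarnitines at the outer membrane and is the step that malonyl-CoA inhibits. Galactose mice lay mostly below the other diets, and the lactose and glucose ranges overlapped over most of their length. The log2 difference was -0.42 ± 0.072 with galactose relative to glucose (adjusted p = 0.000344, 13 of 13 mice) and 0.43 ± 0.072 with lactose relative to galactose (adjusted p = 1.45e-05, 13 of 13), while lactose against glucose gave 0.017 ± 0.072 with an interval of -0.12 to 0.16. Slc25a20, the carrier that exchanges acylcarnitine for carnitine across the inner membrane, averaged 261 ± 58.2 CPM in galactose mice, 379 ± 73.3 CPM in lactose mice and 384 ± 83.8 CPM in glucose mice (SD, n = 13 each). Cpt2, which rebuilds the acyl-CoA on the inner side, averaged 216 ± 30.8 CPM in galactose mice, 275 ± 46.7 CPM in lactose mice and 273 ± 33.9 CPM in glucose mice. Both fell with galactose against glucose, by 0.55 and 0.34 on the log2 scale (adjusted p = 0.00385 and 0.0119), and both were called higher in lactose than in galactose mice (0.54 ± 0.12 and 0.35 ± 0.082). Cpt1b, not tested, averaged 0.388 ± 0.253 CPM in galactose mice, 0.370 ± 0.201 CPM in lactose mice and 0.354 ± 0.212 CPM in glucose mice. In GENCODE vM21, an annotation of an earlier build, 81.4% of its exon length is shared with the read-through gene Gm44502, so that reads may be counted for neither, and its level here is uncertain.

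**Figure D2:**
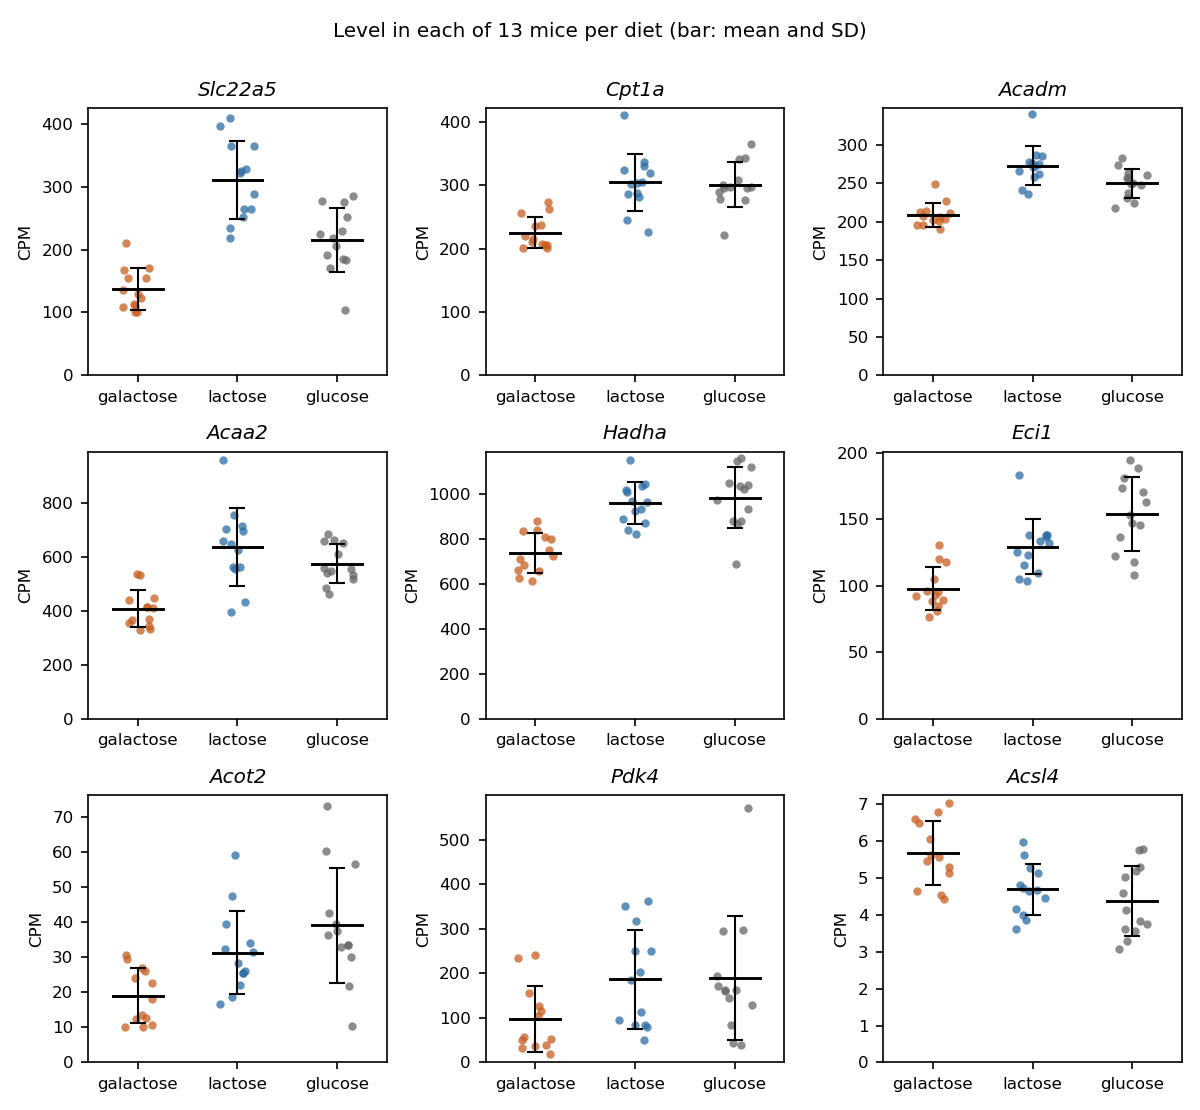
CPM of 9 members in each of the 13 mice per diet, galactose left, lactose in the middle, glucose right; black bars are the mean and SD. Slc22a5 runs over 101 to 211 CPM in galactose mice and 218 to 409.8 CPM in lactose mice, while Pdk4 runs over 38.9 to 572 CPM within glucose mice alone.

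Of the 7 acyl-CoA dehydrogenases, which open each round of oxidation for chains of different length, 5 fell with galactose. Acadm ran over 190.4 to 249.6 CPM with a median of 207 in galactose mice, 236 to 341 CPM with a median of 273 in lactose mice and 218 to 283 CPM with a median of 251 in glucose mice. Acadvl ran over 420.0 to 566 CPM with a median of 463 in galactose mice, 486 to 686 CPM with a median of 573 in lactose mice and 524 to 707 CPM with a median of 651 in glucose mice. For Acadm, the medium-chain enzyme, lactose and galactose mice overlapped only between 236 and 249.6 CPM. For Acadvl, the very-long-chain enzyme, glucose mice lay highest and galactose mice lowest, with lactose mice between them and overlapping both. Acadm differed by -0.26 ± 0.048 with galactose relative to glucose (adjusted p = 0.000625) and by 0.39 ± 0.048 with lactose relative to galactose (adjusted p = 9.46e-08), in 13 of 13 mice each. Acadvl differed by -0.39 ± 0.060 (adjusted p = 8.16e-05) and 0.26 ± 0.060 (adjusted p = 0.00115) in the same comparisons. On the annotation of the earlier build, 42.9% of the exon length of Acadvl lies opposite Dvl2, and the strand setting of the counting is not given in the sources used here, so reads of these genes may not be fully separated. Dvl2 had 8425 counts over all 39 libraries.

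The long-chain enzyme Acadl averaged 479.7 ± 102 CPM in galactose mice, 686 ± 149 CPM in lactose mice and 617 ± 101 CPM in glucose mice (SD, n = 13 each) and the short-chain enzyme Acads 107 ± 12.2 CPM in galactose mice, 125 ± 9.70 CPM in lactose mice and 133 ± 11.6 CPM in glucose mice. Acad11, a family member that acts on long chains, averaged 281 ± 31.7 CPM in galactose mice, 359.5 ± 51.5 CPM in lactose mice and 356 ± 39.9 CPM in glucose mice. All of them were called lower in galactose than in glucose mice and higher in lactose than in galactose mice. The call of Acadl against glucose was close to the threshold (-0.36 ± 0.11, adjusted p = 0.0453), and it was lost when any of 20 of the 39 libraries was left out. Acad9, which also serves the assembly of respiratory complex I, behaved otherwise, with 13.2 ± 1.54 CPM in galactose mice, 11.6 ± 1.61 CPM in lactose mice and 13.3 ± 1.62 CPM in glucose mice. It was called lower in lactose than in galactose mice (-0.18 ± 0.072, adjusted p = 0.047), a call lost in 12 of the 39 fits that left out 1 library. Acad10 averaged 12.7 ± 1.05 CPM in galactose mice, 14.4 ± 2.66 CPM in lactose mice and 12.4 ± 1.04 CPM in glucose mice and was called higher in lactose than in glucose mice (0.22 ± 0.072, adjusted p = 0.0352, 11 of 13), a call lost in 9 of the 39.

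Among the 6 genes of hydration, hydroxyacyl dehydrogenation and thiolysis, Hadha, Hadhb and Acaa2 were called lower with galactose and the others were not called. Acaa2 ran over 329.9 to 536 CPM with a median of 409 in galactose mice, 396 to 956 CPM with a median of 646 in lactose mice and 461 to 685 CPM with a median of 555 in glucose mice. Hadha ran over 614 to 881 CPM with a median of 725 in galactose mice, 820.4 to 1152 CPM with a median of 962 in lactose mice and 686 to 1159 CPM with a median of 1021 in glucose mice. Acaa2, the thiolase that releases acetyl-CoA, and Hadha, the subunit with hydratase and dehydrogenase activity, each had galactose mice at the low end with overlap of all 3 diets. Acaa2 differed by -0.49 ± 0.099 with galactose relative to glucose (adjusted p = 0.00195) and by 0.64 ± 0.099 with lactose relative to galactose (adjusted p = 4.9e-06, 12 of 13 mice). Hadha differed by -0.41 ± 0.069 (adjusted p = 0.000211) and 0.38 ± 0.069 (adjusted p = 6.17e-05), and its partner Hadhb by -0.38 ± 0.067 (adjusted p = 0.000404) and 0.32 ± 0.067 (adjusted p = 0.000364). Hadhb averaged 508 ± 62.4 CPM in galactose mice, 634 ± 58.6 CPM in lactose mice and 663 ± 85.8 CPM in glucose mice (SD, n = 13 each).

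The remaining genes of this role, Hadh, Echs1 and Echdc2, gave small differences. Hadh, the dehydrogenase for short and medium hydroxyacyl-CoA, averaged 1231 ± 119.9 CPM in galactose mice, 1176 ± 76.9 CPM in lactose mice and 1235 ± 135 CPM in glucose mice (SD, n = 13 each). Echs1, the short-chain hydratase, averaged 104 ± 16.2 CPM in galactose mice, 109.8 ± 19.8 CPM in lactose mice and 105 ± 21.4 CPM in glucose mice, and diet took only 1.35% of the variance of its log2 level, the lowest share of the 30. Echdc2, a hydratase-like protein, averaged 10.3 ± 1.24 CPM in galactose mice, 9.86 ± 2.15 CPM in lactose mice and 11.7 ± 1.99 CPM in glucose mice. None of these was called in a pairwise comparison. The 95% interval of the galactose minus glucose difference was -0.12 to 0.11 for Hadh, -0.21 to 0.18 for Echs1 and -0.38 to -0.0060 for Echdc2, so for Hadh a change of the size seen in Hadha (-0.41) lay outside the interval.

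Both enzymes for unsaturated chains fell with galactose. Eci1 ran over 76.8 to 130.4 CPM with a median of 93.4 in galactose mice, 104 to 184 CPM with a median of 132 in lactose mice and 108 to 195 CPM with a median of 153 in glucose mice. Decr1 ran over 187 to 269.7 CPM with a median of 231 in galactose mice, 161 to 299 CPM with a median of 222 in lactose mice and 215 to 313 CPM with a median of 291 in glucose mice. Eci1 moves double bonds into the position that the cycle can use, and most galactose mice lay below most mice of the other diets. Decr1, the dienoyl-CoA reductase, had glucose mice high and both galactose and lactose mice low, with overlapping ranges. Eci1 differed by -0.66 ± 0.092 with galactose relative to glucose (adjusted p = 2.56e-05, the smallest p of any member in that comparison) and by 0.40 ± 0.092 with lactose relative to galactose (adjusted p = 0.000895). Decr1 differed by -0.29 ± 0.073 for galactose (adjusted p = 0.0164) and by -0.25 ± 0.073 for lactose against glucose (adjusted p = 0.0173), the single member called lower with lactose, while lactose against galactose gave 0.039 ± 0.073 (adjusted p = 0.713).

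In electron transfer, Etfb was called lower with galactose, and Etfa and Etfdh were not. Etfb ran over 2.00 to 3.35 CPM with a median of 2.80 in galactose mice, 3.00 to 5.54 CPM with a median of 4.01 in lactose mice and 2.23 to 5.69 CPM with a median of 3.80 in glucose mice. Etfdh ran over 219 to 297 CPM with a median of 236 in galactose mice, 227 to 345 CPM with a median of 254 in lactose mice and 219 to 345 CPM with a median of 285 in glucose mice. Etfb, a subunit of the electron transfer flavoprotein, was low in reads, and galactose mice lay at the low end with overlap. Etfdh, which hands the electrons to ubiquinone, overlapped widely between diets. Etfb differed by -0.57 ± 0.11 with galactose relative to glucose (adjusted p = 0.00146) and 0.55 ± 0.11 with lactose relative to galactose (adjusted p = 0.000227). On the annotation of the earlier build 58.2% of its exon length is shared with Gm45233 on the same strand, which had 0 counts in all libraries, so that part of its reads may have been left uncounted. Etfa, the partner subunit, averaged 283 ± 24.5 CPM in galactose mice, 315 ± 35.1 CPM in lactose mice and 314 ± 29.6 CPM in glucose mice (SD, n = 13 each). It was not called for galactose against glucose (-0.15 ± 0.057, adjusted p = 0.119) and was called for lactose against galactose (0.15 ± 0.057, adjusted p = 0.0371), a call lost in 16 of the 39 fits that left out 1 library. Etfdh passed the test of any diet difference (adjusted p = 0.0455) and no pairwise test (-0.20 ± 0.065 for galactose against glucose, adjusted p = 0.0734).

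Among the thioesterases, which split acyl-CoA back to the free acid, Acot2 was called and Acot13 was not. Acot2 ran over 10.2 to 30.7 CPM with a median of 18.1 in galactose mice, 16.6 to 59.2 CPM with a median of 28.3 in lactose mice and 10.4 to 73.2 CPM with a median of 36.4 in glucose mice. Acot13 ran over 38.4 to 56.1 CPM with a median of 51.7 in galactose mice, 40.3 to 56.5 CPM with a median of 51.0 in lactose mice and 43.8 to 64.1 CPM with a median of 52.2 in glucose mice. Acot2 spread widely within each diet, and galactose mice lay in the lower part of the glucose range. It differed by -1.04 ± 0.23 with galactose relative to glucose (adjusted p = 0.00452, 13 of 13 mice), the largest size among called members of that comparison, and by 0.72 ± 0.23 with lactose relative to galactose (adjusted p = 0.014, 11 of 13). Acot2 has a near-identical neighbour, the cytosolic thioesterase gene Acot1, and reads may be split between them. Acot1 differed in the same direction, with 42.7 ± 29.0 CPM in galactose mice, 108 ± 79.5 CPM in lactose mice and 113 ± 64.5 CPM in glucose mice. Acot13 had a 95% interval of -0.19 to 0.037 for galactose against glucose.

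Pdk4 ran over 19.1 to 242 CPM with a median of 58.1 in galactose mice, 50.2 to 363 CPM with a median of 186 in lactose mice and 38.9 to 572 CPM with a median of 162 in glucose mice. Pdk4, a kinase that turns off pyruvate dehydrogenase and so favours fat over glucose as fuel, spread the most between mice of a diet, and the ranges overlapped over most of their length. Its differences were large and not called, at -0.95 ± 0.39 with galactose relative to glucose (adjusted p = 0.152) and 0.93 ± 0.39 with lactose relative to galactose (adjusted p = 0.0625). Ucp2 ran over 713 to 1156 CPM with a median of 931 in galactose mice, 723 to 1291 CPM with a median of 1049 in lactose mice and 802 to 1504 CPM with a median of 1211 in glucose mice. Ucp2, a carrier of the inner membrane, was highest in glucose mice and passed the test of any diet difference (adjusted p = 0.0279), but no pairwise test, with -0.30 ± 0.091 with galactose relative to glucose (adjusted p = 0.0525).

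From a list of 72 further genes, among them carnitine synthesis, coenzyme A supply, malonyl-CoA control, propionyl-CoA branch and transcriptional control, 64 were tested. In galactose against glucose mice 8 were called lower and 2 higher, with a median log2 difference of -0.069, where 2.87% and 1.21% of all tested genes were called in these directions. In lactose against galactose mice 23 were called higher and 6 lower (median 0.089), beside 15.9% and 15.0% of all tested genes. In lactose against glucose mice 8 were called higher and 3 lower (median 0.041), beside 8.73% and 6.84% of all tested genes. The same shares of all tested genes stand beside the counts of the next list. A list of 14 genes regarded as PPAR targets outside the mitochondrial pathway had 13 tested: 9 were called lower with galactose against glucose (median -0.52), 11 higher in lactose against galactose (median 0.76) and 4 higher in lactose against glucose (median 0.11), and none was called in the other direction. Fabp2 of this list was also 1 of the 9 enterocyte markers.

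The genes named here are among those of both lists with the smallest p in each comparison. For galactose against glucose, Cyp4a10, an omega-hydroxylase of fatty acids, averaged 87.8 ± 49.8 CPM in galactose mice and 315 ± 115 CPM in glucose mice (-1.84 ± 0.32, adjusted p = 0.000369). Eci2, an isomerase like Eci1, averaged 89.2 ± 12.7 CPM in galactose mice and 144 ± 28.5 CPM in glucose mice (-0.69 ± 0.12, adjusted p = 0.000404). Acacb, the carboxylase whose product malonyl-CoA inhibits Cpt1a, fell by 1.34 on the log2 scale (adjusted p = 0.00157), with 7.60 ± 3.46 CPM in galactose mice and 19.2 ± 8.71 CPM in glucose mice. The fatty acid binding protein gene Fabp1, the peroxisomal enzyme gene Ehhadh and the acyl-CoA binding protein gene Dbi fell by 0.51, 0.60 and 0.41 on the log2 scale.

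For lactose against galactose, Eci2 (0.98 ± 0.12), the fatty acid binding protein gene Fabp2 (0.99 ± 0.12), the peroxisome proliferation gene Pex11a (0.93 ± 0.12), Cyp4a10 (2.46 ± 0.33) and the peroxisomal coenzyme A hydrolase gene Nudt7 (0.54 ± 0.080) were called higher. Cyp4a31 was called higher (3.50 ± 0.44) from a level close to 0, with 1.60 ± 1.22 CPM in lactose mice and 0.135 ± 0.108 CPM in galactose mice. Ppard, the gene of another PPAR receptor, went the other way with 94.7 ± 23.7 CPM in lactose mice and 173 ± 24.6 CPM in galactose mice (-0.87 ± 0.12, adjusted p = 3.98e-07). For lactose against glucose, the carnitine synthesis genes Bbox1 (0.99 ± 0.15, adjusted p = 2.97e-05) and Aldh9a1 (0.33 ± 0.086) were called higher, beside the carnitine importer Slc22a5 described above. Of the 7 tested genes for carnitine synthesis and transfer on the list of further genes, 3 were called higher and 1 lower. Their median log2 difference was 0.027. Acsm5 (0.87 ± 0.20) and Acsf2 (0.31 ± 0.087), synthetases of mitochondria, Fabp2 (0.54 ± 0.12) and Cyp4a31 (2.01 ± 0.38) were higher too, and Ppard was lower (-0.54 ± 0.12).

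For the stages downstream of beta-oxidation, the shares of all tested genes called, 4.07% for galactose against glucose, 30.9% for lactose against galactose and 15.6% for lactose against glucose, stand beside the counts. Of 17 tricarboxylic acid cycle genes 1 was called lower with galactose against glucose (median -0.044), 8 higher in lactose against galactose (median 0.10) and 3 higher and 1 lower in lactose against glucose (median 0.089). Of 67 respiratory chain genes 0 were called in galactose against glucose by edgeR, 1 by DESeq2, and 23 had an unadjusted p under 0.05; 64 lay below 0, with a median of -0.11. In lactose against galactose 8 were called higher and 1 lower (median 0.090), and in lactose against glucose 1 was called lower (median -0.029).

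**Figure D3:**
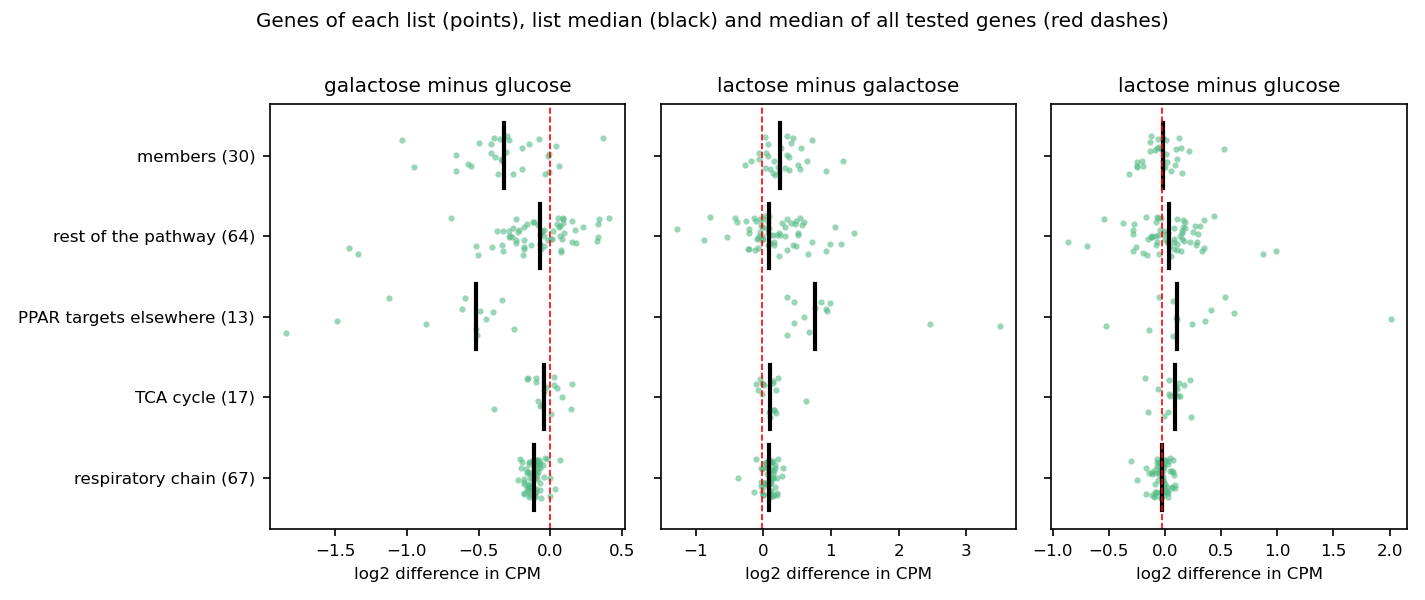
Log2 difference in CPM of every tested gene of 5 lists in galactose minus glucose, lactose minus galactose and lactose minus glucose; points are genes, black bars list medians and the red line the median of all 14658 tested genes. In galactose minus glucose the members have a median of -0.32 and the PPAR targets outside the pathway -0.52, against -0.069 for the rest of the pathway and -0.11 for the respiratory chain.

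Markers of some other cell types differed between the diets beside these genes. Summed smooth muscle markers ran over 336 to 1243 CPM with a median of 424 in galactose mice, 215 to 458 CPM with a median of 300.4 in lactose mice and 218 to 570.3 CPM with a median of 351 in glucose mice, and 10 of the 10 were called between lactose and galactose. Fibroblast markers had medians of 229, 156 and 192 CPM in galactose, lactose and glucose mice, with 3 of 5 tested genes called between lactose and galactose. Of the 5 skeletal muscle markers 3 were tested, and Myh4 had 0 counts in every library, so the sums come from the other genes of this list. These sums had medians of 20.2, 3.74 and 8.67 CPM. They ran over 8.41 to 67.2 CPM in galactose, 2.98 to 5.78 CPM in lactose and 4.64 to 21.0 CPM in glucose mice. B and plasma cell markers had medians of 864 CPM in galactose, 1883 CPM in lactose and 1226 CPM in glucose mice. Between lactose and galactose, 3 of 5 endothelial and 3 of 5 myeloid markers were called, and 1 of 5 goblet and 1 of 5 Paneth markers. Over all tested genes 30.9% were called in that comparison. Of the proliferation, enteroendocrine, T cell and hepatocyte markers 0 were called in any comparison. Adipocyte markers stayed at or below 2.29 CPM in every library. Their part in the member differences was not tested, apart from 1 covariate.

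That covariate was a tissue score, the mean of the scaled levels of crypt stem, fibroblast and smooth muscle markers, with medians of 0.42 in galactose mice, -0.54 in lactose mice and -0.060 in glucose mice. With the score in the model, 14 members were called lower with galactose against glucose and 0 higher by edgeR, and all 14 were among the 16. The median of the members was -0.26 in place of -0.32. Between lactose and galactose 5 members were called in place of 18. These were Slc22a5, Cpt1a, Acadm, Hadha and Acaa2, all higher with lactose, and the median was 0.18 in place of 0.24. Between lactose and glucose 1 member was called in place of 3, and the call of Slc22a5 was lost (adjusted p = 0.075). Over all tested genes the calls between lactose and galactose also fell, to 591 higher and 494 lower with the score, against 2328 and 2204 without it. For galactose against glucose they fell to 101 higher and 261 lower, against 177 and 420. For lactose against glucose they fell to 371 higher and 282 lower, against 1279 and 1002.

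The mean scaled level of the 30 members gave 1 value per library, in SD units over the 39 libraries. It ran over -1.20 to 0.076 with a median of -0.73 in galactose mice, -0.69 to 1.52 with a median of 0.22 in lactose mice and -0.28 to 0.95 with a median of 0.45 in glucose mice. Galactose libraries filled the low end, while lactose and glucose libraries overlapped widely. Lactose replicate 8, the highest library, had the highest level of its diet in 16 of the 30 members and the lowest tissue score of the 39, at -1.19. Without it, 6 members were called between lactose and glucose in place of 3. Glucose replicate 13 was the lowest of its diet in 12 members, among them Slc22a5, Cpt1a, Cpt2, Slc25a20, Hadha and Hadhb, and the highest of its diet in 2, Acsl4 and Echs1.

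**Figure D4:**
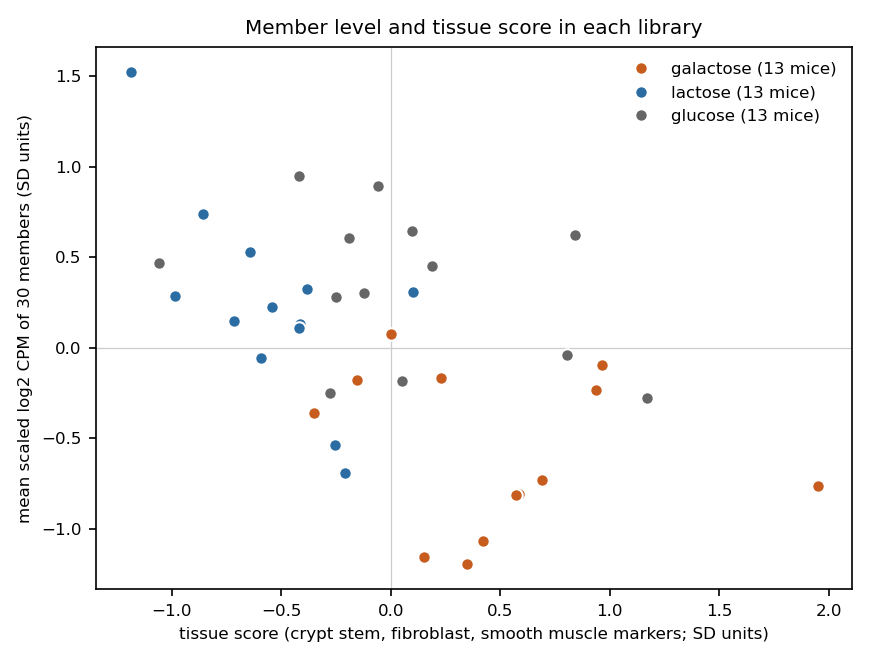
Mean scaled log2 CPM of the 30 members (vertical, SD units) against the tissue score from crypt stem, fibroblast and smooth muscle markers (horizontal, SD units) in each of the 39 libraries, coloured by diet. Lactose libraries lie to the left with a median score of -0.54 and galactose libraries to the right and low with a median score of 0.42 and a median member level of -0.73.

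Covariation was computed between mice of the same diet, after the mean of each diet was removed, so that the diet differences above did not enter it. All values come from the same 39 libraries and share their depth and scaling. Of the 435 pairs among the 30 members 365 had a positive Pearson r, and 193 passed the permutation test after Benjamini-Hochberg adjustment over the 435 pairs, 192 of them positive. The median r was 0.317. It was 0.348 within the libraries with title numbers 1 to 18, 0.36 within title numbers 49 to 69, and 0.297 with the tissue score removed. An r of at least 0.8 was reached by 16 pairs. No such values are given here for pairs of other tested genes. Whether the members covary more than other genes of these libraries was not tested.

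The closest pair was Hadha and Hadhb, both subunits of 1 enzyme and neighbours on the chromosome, with r = 0.936 and Spearman rho = 0.916 (permutation p = 1e-05 for each, the smallest that 100000 resamples give, adjusted p = 7.5e-05 and 8.4e-05). Without the 2 libraries farthest from the median r was 0.914, and it was 0.861 and 0.971 within the runs of title numbers. Slc25a20, the inner membrane carrier, followed Hadhb (r = 0.885) and Hadha (r = 0.874). Slc22a5 and Slc25a20, which move carnitine and its esters across the plasma and inner mitochondrial membranes, had r = 0.862. Acadvl followed Hadhb and Acads with r = 0.870 and 0.870. Acot2 and Pdk4, the members that spread most between mice of a diet, had r = 0.859, with rho = 0.861.

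Members differed widely in how many others they followed. Acsl4 passed with 0 of the other 29 members, Acad9 and Etfb with 1 each, Acsl3 with 2 and Hadh with 3, while Eci1, Acadl and Acaa2 passed with 20 each. Eci1 had the highest mean r with the others (0.499) and Acsl4 the lowest (0.035). Echs1 and Ucp2 followed each other (r = 0.763, rho = 0.756, r = 0.708 without the 2 libraries), although Echs1 lay below 0 with most shuttle genes, such as Slc22a5 (r = -0.334, adjusted p = 0.089). The single pair with a negative r past the threshold was Acsl3 and Echs1 (r = -0.428, rho = -0.484, adjusted p = 0.025), with -0.639 and -0.278 within the runs. Pairs within electron transfer varied, with r = 0.474 for Etfa and Etfdh and 0.318 (adjusted p = 0.1) for the subunits Etfa and Etfb.

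**Figure D5:**
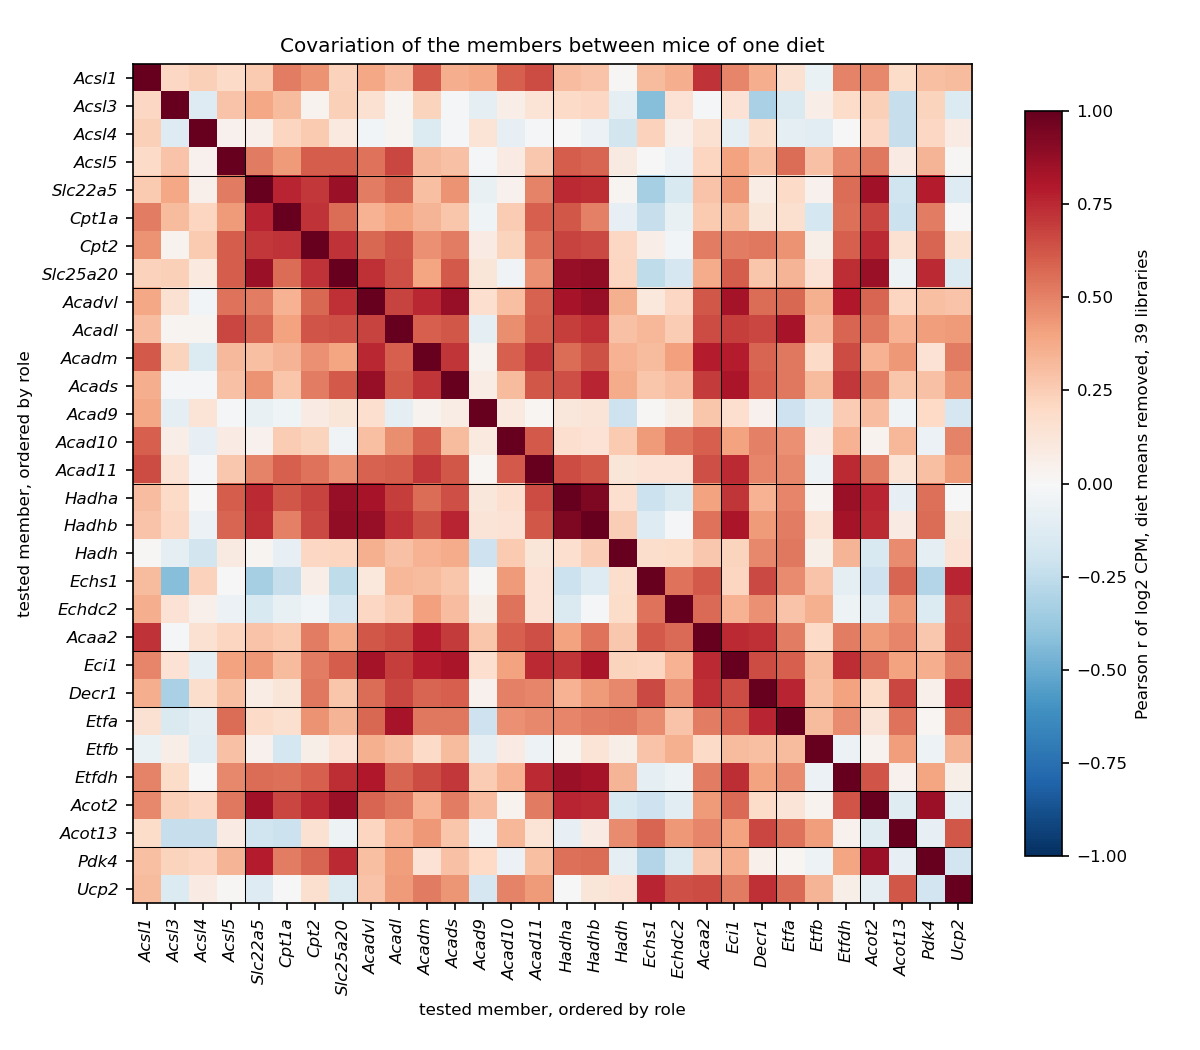
Pearson r of log2 CPM between every pair of the 30 tested members over 39 libraries after removal of each diet mean, with members ordered by role and lines between roles. Hadha and Hadhb reach the highest r, 0.936. Mean r with the other members is highest for Eci1 (0.499), Acadvl (0.485) and Acadl (0.479). It is lowest for Acsl4 (0.035), Acad9 (0.056), Acsl3 (0.065) and Etfb (0.139).

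With the tissue score, 4 members had a negative r past the adjusted threshold within diets: Etfa (r = -0.503), Acadl (-0.452), Acadm (-0.437) and Acad10 (-0.366). Their rho were -0.42, -0.478, -0.396 and -0.349, and none of these passed (adjusted p = 0.117, 0.0876, 0.117 and 0.155). Without the 2 libraries farthest from the median score r was -0.355, -0.426, -0.393 and -0.35. The other 26 members did not pass, and 30 relations were computed in this family.

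Title numbers fall into a run from 1 to 18, with 6 mice per diet, and a run from 49 to 69, with 7 mice per diet. The labels do not call these batches. Alone, the run from 1 to 18 gave 6 called members for galactose against glucose, all of them among the 17, and the run from 49 to 69 gave 4, also all among the 17. In that comparison the run from 1 to 18 alone called 8 genes higher and 64 lower of all 14546 tested. Such counts over all genes are not given here for the other fits of single runs. For lactose against galactose the runs gave 7 and 14 called members. For lactose against glucose they gave 0 and 3, where 5 members of the run from 1 to 18 had an unadjusted p under 0.05. The difference of a contrast between the runs was tested directly by an interaction in edgeR. It passed for 0 genes in all 3 comparisons, with 634, 894 and 902 genes at an unadjusted p under 0.05 for galactose against glucose, lactose against glucose and lactose against galactose, of which 1, 3 and 1 were members. The 3 members for lactose against glucose were Cpt1a, with -0.18 in the run from 1 to 18 and 0.19 in the run from 49 to 69 (adjusted p = 0.495), Acsl3, with -0.49 and 0.21 (adjusted p = 0.55), and Slc22a5, with 0.21 and 0.80 (adjusted p = 0.67).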

How the data were processed

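RNA of 39 scrapings was sequenced on a DNBSEQ platform. The authors deposited raw counts of reads per gene, made with STAR and HTSeq on GRCm39 after FastQC, per the submitters' processing notes. Versions, annotation release, strand setting and read filters are not given in the sources used here. Of 56980 gene identifiers 52073 were matched to a symbol.

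Counts were analysed in edgeR 4.0.16 (R 4.3.3) with filterByExpr by diet, TMM factors, 1 mean per diet and quasi-likelihood F tests, two-sided, adjusted by Benjamini-Hochberg over 14658 genes and called below 0.05. A standard error is the log2 difference over the square root of F, and a 95% interval is 1.96 of these on either side. Values are CPM with TMM factors. A prior count of 2 was added before log2. A mouse shows a direction if it lies beyond the mean of the other diet. Correlations used 100000 permutations within diets. The pipeline was tested on simulated data. Of simulated 1.25-fold differences 34.4% were recovered for galactose against glucose, 32% for lactose against glucose and 25.5% for lactose against galactose. Of 2-fold differences 93.9%, 95.4% and 88.9% were recovered. A member that was not called may thus still differ by a small amount. Alternatives included DESeq2 1.42.0, other scalings, filters and covariates, and fits without libraries.

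Members and lists were chosen with earlier results of these data known. In each role the 2 members of smallest p over diets are given by range, and of other lists up to 8 called genes per comparison of smallest p are named, except genes not reported here. Exon overlaps came from GENCODE vM21 and promoter windows from RefSeq GRCm38.p6, both of an earlier build than the files, so no member coordinate of GRCm39 is given.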

Additional observations from a re-analysis of the deposited data

How the results depend on the processing

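Members called were 17 for galactose against glucose, 3 for lactose against glucose and 18 for lactose against galactose. RLE size factors gave 16, 4 and 18, DESeq2 18, 4 and 18, a filter of CPM above 1 in 13 libraries 18, 4 and 18, fits on only the 2 diets compared 18, 2 and 17, the run of title numbers as a covariate 17, 3 and 18, and leaving out the 7 libraries with Ifit3 above 100 CPM, added after the data were seen, 17, 3 and 17. Library totals alone gave 17, 11 and 16, no low-count filter 16, 1 and 15, and the tissue score as a covariate 14, 1 and 5. Over all tested genes, in the same order, library totals called 601, 3527 and 6021, against 597, 2281 and 4532 with TMM. Of all genes called with library totals, 17.7% were higher for lactose against glucose and 17.7% for lactose against galactose. With TMM these shares were 56.1% and 51.4%. For galactose against glucose the share was 52.4%, against 29.6% with TMM. Title numbers 1 to 18 alone gave 6, 0 and 7, and title numbers 49 to 69 alone 4, 3 and 14, with fewer mice. Leaving out each of the 39 libraries in turn gave 15 to 18, 2 to 6 and 16 to 20. For lactose against glucose the count was 5 without galactose replicate 1, 5 without glucose replicate 2 and 6 without lactose replicate 8. The cause was not tested, apart from what these fits are made of.

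The labels give no replicate numbers that pair mice across diets. A block for each triplet of neighbouring title numbers, 1 mouse per diet, gave 19, 7 and 19 called members; the added calls were Etfdh and Pdk4 for galactose against glucose, Acad9, Acadm, Echdc2 and Eci1 for lactose against glucose and Pdk4 for lactose against galactose. Pairs of members past the adjusted threshold were 193, also 193 with a prior count of 0.5 and 184 with the tissue score removed.

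Of the differences of single members, 26 changed sign under at least 1 of 10 settings, 56 values in all, none of them called in either fit. With library totals only the log2 differences were, for galactose against glucose Acad9 0.025, Hadh 0.029, Echs1 0.014, and for lactose against glucose Acsl4 -0.016, Acsl5 -0.016, Cpt1a -0.088, Cpt2 -0.095, Acad11 -0.089, Echs1 -0.052, Etfa -0.10, and for lactose against galactose Acsl5 -0.11, Echs1 -0.066, Decr1 -0.10, Etfdh -0.072, Acot13 -0.12, Ucp2 -0.047. With title numbers 1 to 18 alone the log2 differences were, for galactose against glucose Acsl1 0.019, Acad9 0.051, Hadh 0.032, Echs1 0.20, and for lactose against glucose Acsl1 -0.012, Cpt1a -0.18, Cpt2 -0.11, Acad11 -0.10, Etfb 0.017, and for lactose against galactose Acsl1 -0.031, Acad10 -0.0093, Echs1 -0.046, Decr1 -0.0086, Ucp2 -0.093. With title numbers 49 to 69 alone the log2 differences were, for galactose against glucose Acad10 -0.042, and for lactose against glucose Acsl3 0.21, Slc25a20 0.050, Echs1 -0.016, Etfa -0.00056, Pdk4 0.25, and for lactose against galactose Echdc2 0.065. With the tissue score in the model the log2 differences were, for galactose against glucose Hadh 0.030, Echs1 0.026, and for lactose against glucose Cpt1a -0.041, Cpt2 -0.040, Acad11 -0.038, Etfa -0.079, and for lactose against galactose Acsl5 -0.050, Echs1 -0.021, Decr1 -0.063, Acot13 -0.090, Ucp2 -0.043. With the triplet as a block the log2 differences were, for galactose against glucose Echs1 0.00019, and for lactose against glucose Etfa -0.00040, Pdk4 0.039. With RLE size factors the log2 differences were, for galactose against glucose Hadh 0.0011. With DESeq2 the log2 differences were, for galactose against glucose Hadh 0.0011. With CPM above 1 in 13 libraries as filter the log2 differences were, for lactose against glucose Etfa -0.0012. With only the 2 diets compared the log2 differences were, for lactose against glucose Etfa -0.0042. Without galactose replicate 4 the log2 differences were, for lactose against glucose Etfa -0.0057. Low counts limit Etfb, Acsl4 and Cpt1b most.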
